A study of Mus musculus with 17 samples.

Results

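The 10 transcripts described here encode the enzymes that make serine from glucose and those that pass its one-carbon unit through the folate pathway in the cytosol and in mitochondria. They were picked by gene name from a table of 56748 genes, all 10 were found, and all 10 were among the 16195 genes left for testing after a filter on low counts (filterByExpr of edgeR). The cytosolic members are *Phgdh*, *Psat1*, *Psph*, *Shmt1* and *Mthfd1*, and the mitochondrial members are *Shmt2*, *Mthfd2*, *Mthfd2l*, *Mthfd1l* and *Aldh1l2*. They were measured by poly(A) RNA sequencing of heart tissue from 17 untreated mice aged 12 to 16 months, 9 *Polg* hMut mice (hMut) and 8 controls (Ctrl), with 1 library per mouse. The hMut mice are homozygous for the inducible *Polg* iMut allele and carry the Ckmm-cre transgene (*Polg* iMut/iMut; +/Ckmm-cre). In this allele a floxed wild-type *Polg* cDNA is removed by cre, after which a proofreading-deficient form of POLG, the DNA polymerase of mitochondria, is expressed. The promoter of Ckmm-cre, that of muscle creatine kinase, is active in striated muscle, so the endothelial cells, fibroblasts and leukocytes of the heart are not its targets but are included in the RNA. The labels describe the Ctrl mice only as controls, and their alleles are not given in the sources used here.

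Serine is made from the glycolytic intermediate 3-phosphoglycerate by PHGDH, PSAT1 and PSPH in turn. SHMT1 in the cytosol and SHMT2 in mitochondria transfer a carbon from serine to tetrahydrofolate, and the folate-bound unit is then oxidized to formate by MTHFD2 or MTHFD2L with MTHFD1L in mitochondria, while MTHFD1 carries the corresponding steps on 1 protein in the cytosol, where formate is used for purine and thymidylate synthesis. *Mthfd2*, *Phgdh*, *Psat1* and *Aldh1l2* are known targets of the transcription factor ATF4, and adult tissues usually hold little *Mthfd2* transcript.

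Total counts per heart lay between 34425783 and 46486964 in Ctrl and between 32915159 and 40175122 in hMut. *Polg*, the targeted gene, was at 57.9 ± 6.08 CPM (gene counts scaled to the total of the library after TMM normalization; SD, n = 9) in hMut and at 34.7 ± 7.31 (SD, n = 8) in Ctrl, and 8 of 9 hMut hearts exceeded all Ctrl hearts (log2 fold change 0.74, SE 0.10, edgeR adjusted p = 0.000448). Counts over the gene cannot tell the wild-type cDNA from the altered exon. *Fanci*, on the opposite strand, shares 9.29% of the exon bases of *Polg* and had a mean of 17.6 counts beside 1790 for *Polg*. Reads of mtDNA-encoded genes made up 23.5% to 30.9% of the counts in Ctrl and 15.9% to 23.0% in hMut. The 6 cardiomyocyte markers were detected in every heart, with a summed level of 29050 to 35495 CPM in Ctrl and 20641 to 34055 CPM in hMut. All 6 had a log2 fold change below 0 (median -0.25) and 5 had a 95% interval below 0, but 0 of the 6 passed the adjustment, *Tnni3*, the cardiac troponin I gene, being below every Ctrl heart in 8 of 9 hMut hearts (log2 fold change -0.43, SE 0.13, edgeR adjusted p = 0.0629). The part of this shift in the results below was not tested. Of the 3 atrial markers, *Myl7* had at most 19 and *Sln* at most 11 counts in any library. The third, *Myl4*, had 38 to 94 counts, with a mean of 1.67 CPM in hMut and 1.51 CPM in Ctrl. Atrial marker transcripts were thus low but not all absent. The summed level of the 5 leukocyte markers was between 51.7 and 92.2 CPM in Ctrl and between 58.1 and 219 CPM in hMut. It was highest in hMut replicates 6 (219 CPM) and 9 (126 CPM), which also had the lowest cardiomyocyte sums, 22494 and 20641 CPM. In RNA of bulk tissue, fewer cells of a type and less RNA per cell cannot be told apart.

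Transcripts of 6 of the 10 enzymes were higher in hMut than in Ctrl hearts and 0 were lower. The 6 were the 3 serine synthesis enzymes *Phgdh*, *Psat1* and *Psph* and, of the mitochondrial folate enzymes, *Mthfd2*, *Aldh1l2* and *Shmt2*, at 1.24-fold (*Shmt2*) to 16.8-fold (*Mthfd2*) the Ctrl level. *Shmt1*, *Mthfd1*, *Mthfd2l* and *Mthfd1l* did not pass the test. Over all genes tested, 4.62% were called in either direction (749 genes), 3.48% were called higher (564 genes) and 1.14% were called lower (185 genes). The count over all genes moved with single libraries, between 395 without hMut replicate 5 and 1792 without hMut replicate 2, whereas 6 or 7 members were called in each of these fits. By compartment, 3 of the 5 mitochondrial members were called, with a median log2 fold change of 1.05, and 3 of the 5 cytosolic members, with a median of 0.46, beside a median of 0.00 over all genes tested. The called cytosolic members were the 3 enzymes of serine synthesis, and neither cytosolic folate enzyme was called. Every hMut heart was above every Ctrl heart for *Phgdh*, *Psat1*, *Mthfd2* and *Aldh1l2*, a separation seen in 0.543% of all genes tested (88 genes). DESeq2 called 9.19% of its 16336 genes (1502 genes) and 7 of the members, *Mthfd1l* being the additional one.

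**Figure D1:**
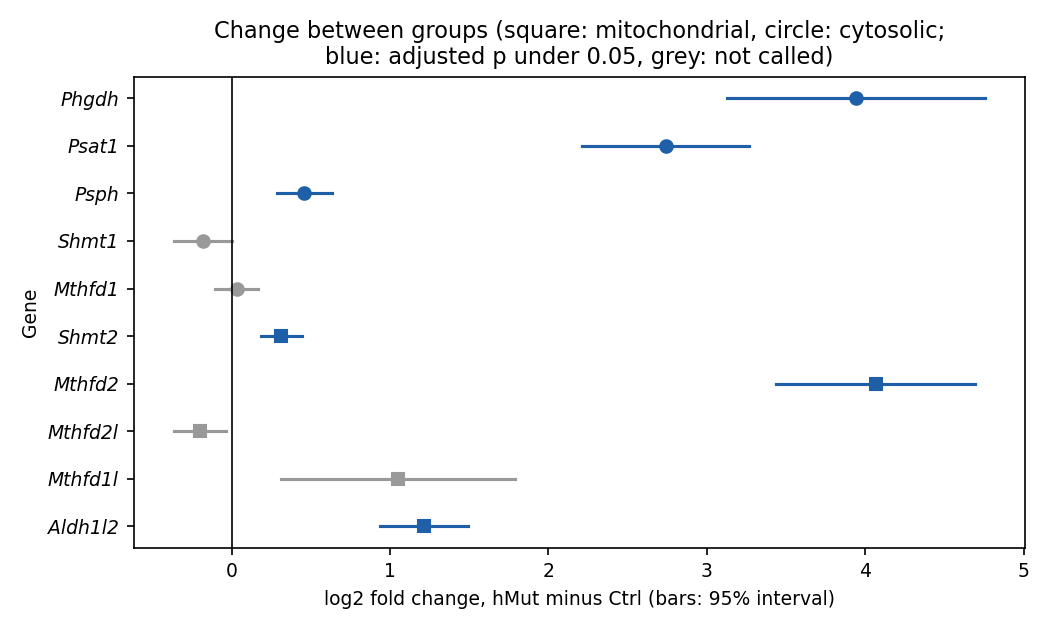
Log2 fold change of each transcript between hMut and Ctrl hearts on the horizontal axis, with 95% intervals from the edgeR fit, circles for cytosolic and squares for mitochondrial enzymes and blue for those past the threshold. *Mthfd2* (4.07), *Phgdh* (3.94) and *Psat1* (2.74) lie far to the right, and the intervals of *Shmt1* and *Mthfd1* cross 0.

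The C/EBP-ATF response element, bound by ATF4 with a partner, has the core TGATGNAA, and its matches near the start sites are shown here because several members moved together. In the 300 bases from 250 upstream to 50 downstream of each start site (canonical transcripts of GENCODE M39 on GRCm39), the core, searched on both strands, was in 0 of the 10 members and in 3.84% of 21770 protein-coding genes. The E-box CACGTG, which reads the same on both strands, was in 1 member, *Aldh1l2*, with its first base 47 bases upstream of the start site (position -47), and in 7.81% of the genes. A window of 1000 bases on each side of the start site, chosen after the shorter window had been searched, held the core in 5 of the 10 members and in 22.0% of all genes. All 6 matches were downstream of the start site and in intron 1. Of all genes, 13.5% held a match upstream and 10.3% a match downstream, and the share with a match in intron 1 was not computed. The share to set beside the 5 members is that of the whole window, 22.0%. Each is written 5′ to 3′ on the strand of the gene, with the core or its reverse complement in capitals and 11 bases on each side. The *Shmt2* matches lie at chr10:127357815-127357844 and chr10:127357793-127357822 on the minus strand, with first bases 488 and 510 bases from the start site, and the second is on the opposite strand. The *Mthfd2* match lies at chr6:83294151-83294180 on the minus strand, 435 bases from the start site. The *Mthfd1l* match lies at chr10:3923748-3923777 on the plus strand, 687 bases from the start site. The *Aldh1l2* match lies at chr10:83369248-83369277 on the minus strand, 739 bases from the start site and on the opposite strand. The *Phgdh* match lies at chr3:98246524-98246553 on the minus strand, 764 bases from the start site.
Shmt2, first: agctatggagaTGATGCAAccgagcctcag
Shmt2, second: agcctcagtacTTTCATCAcgcaagggtcc
Mthfd2: ttgctgcagtcTGATGAAAtctgtgagccg
Mthfd1l: gcctccggctcTGATGCAAccgcgccgggc
Aldh1l2: cagacgtgggaTTGCATCAgatcacttcta
Phgdh: cgccttttgtcTGATGCAAgaccttggcgc
These letters were not found in the wider windows of *Psat1*, *Psph*, *Shmt1*, *Mthfd1* and *Mthfd2l*, so the members with a match include 4 of the 6 called higher and 1 that was not called. A match describes the sequence only.

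*Phgdh* (chr3:98220486-98247306, minus strand) encodes the enzyme of the first step of serine synthesis. It was among the least abundant members in Ctrl, with 0.538, 0.853 and 1.55 CPM as the lowest, median and highest heart, against 2.26, 13.7 and 23.9 CPM in hMut. The groups did not overlap, although hMut replicate 2, the lowest, was close to the highest Ctrl heart. The mean was 14.2 ± 7.24 CPM (SD, n = 9) in hMut and 0.925 ± 0.336 CPM (SD, n = 8) in Ctrl, a log2 fold change of 3.94 (SE 0.39, 95% interval 3.13 to 4.75, edgeR adjusted p = 9.09e-06). These levels rested on a median of 31.5 counts in Ctrl and 575 counts in hMut, so the Ctrl level carries a larger counting error than those of the other called members.

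*Psat1* (chr19:15882042-15924701, minus strand), whose product adds the amino group in the second step, had a lowest, median and highest level of 2.69, 3.19 and 3.93 CPM in Ctrl and of 7.54, 21.5 and 36.4 CPM in hMut. Again no hMut heart fell within the Ctrl range. The log2 fold change was 2.74 (SE 0.25, 95% interval 2.21 to 3.27, 6.69-fold, edgeR adjusted p = 4.56e-06).

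*Psph* (chr5:129842622-129864513, minus strand) encodes the phosphatase of the last step and changed less. Its lowest, median and highest levels were 4.60, 4.97 and 5.60 CPM in Ctrl and 5.36, 6.96 and 8.35 CPM in hMut, with hMut replicate 2 inside the Ctrl range and the other 8 hMut hearts above it. The log2 fold change was 0.46 (SE 0.08, 95% interval 0.29 to 0.63, 1.37-fold, edgeR adjusted p = 0.00368). Of the exon bases of *Psph*, 6.33% are shared with the more abundant *Cct6a* on the opposite strand, which had a log2 fold change of 0.14 (SE 0.03, edgeR adjusted p = 0.0150), and whether reads were counted by strand is not given in the sources used here.

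*Shmt2* (chr10:127352992-127358313, minus strand), the mitochondrial hydroxymethyltransferase, was the most abundant member in Ctrl per length. Its levels ran from 35.5 through a median of 38.3 to 39.5 CPM in Ctrl and from 37.1 through 47.6 to 53.0 CPM in hMut. All hMut hearts except replicate 2 were above the Ctrl range. The log2 fold change was 0.31 (SE 0.06, 95% interval 0.19 to 0.44, 1.24-fold, edgeR adjusted p = 0.00630). *Ndufa4l2*, on the opposite strand, shares 17.7% of the exon bases of *Shmt2* and had a log2 fold change of 0.21 (SE 0.10, edgeR adjusted p = 0.187).

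*Mthfd2* (chr6:83282673-83302890, minus strand), the dehydrogenase and cyclohydrolase that handles the mitochondrial folate-bound unit, had the largest fold change of the 10 and ranked 2 of all 16195 genes by p. Its lowest, median and highest levels were 2.44, 4.41 and 5.41 CPM in Ctrl and 20.6, 67.7 and 115 CPM in hMut. The groups lay far apart, the lowest hMut heart, replicate 2, being well above the highest Ctrl heart. The mean was 68.9 ± 30.5 CPM (SD, n = 9) against 4.13 ± 0.978 CPM (SD, n = 8), a log2 fold change of 4.07 (SE 0.30, 95% interval 3.44 to 4.69, 16.8-fold, edgeR adjusted p = 3.82e-07).

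*Mthfd2l* (chr5:91078976-91169227, plus strand) encodes a related mitochondrial dehydrogenase. Its lowest, median and highest levels were 5.29, 6.45 and 7.49 CPM in Ctrl and 4.84, 5.41 and 6.42 CPM in hMut. The ranges overlapped, with 4 hMut hearts below every Ctrl heart. The log2 fold change was -0.20 (SE 0.08, 95% interval -0.36 to -0.04) and did not pass the adjustment over all genes (edgeR adjusted p = 0.125).

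*Mthfd1l* (chr10:3923118-4117081, plus strand), the mitochondrial formyltetrahydrofolate synthetase that releases formate, varied most in Ctrl, from 0.678 through a median of 1.66 to 2.95 CPM. In hMut it ran from 1.02 through 3.38 to 6.40 CPM, and 6 of the 9 hearts were above every Ctrl heart. hMut replicates 1, 2 and 4 lay within the Ctrl range. The log2 fold change was 1.05 (SE 0.35, 95% interval 0.31 to 1.79), with an edgeR adjusted p of 0.0860. DESeq2 gave an adjusted p of 0.0279, and edgeR gave 0.0440 without hMut replicate 1 and 0.0295 without hMut replicate 2.

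*Aldh1l2* (chr10:83323314-83370004, minus strand), the mitochondrial enzyme that oxidizes formyltetrahydrofolate with production of NADPH, ran from 7.39 through a median of 9.09 to 12.1 CPM in Ctrl. The hMut hearts ran from 15.8 through 20.5 to 30.1 CPM and did not overlap Ctrl. The log2 fold change was 1.21 (SE 0.13, 95% interval 0.94 to 1.49, 2.32-fold, edgeR adjusted p = 1.94e-05). *Nopchap1*, on the opposite strand, shares 14.1% of the exon bases of *Aldh1l2* and had a log2 fold change of 0.09 (SE 0.06, edgeR adjusted p = 0.328).

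*Shmt1* (chr11:60678930-60702544, minus strand) and *Mthfd1* (chr12:76302072-76366577, plus strand) encode the cytosolic counterparts. *Shmt1* had a lowest, median and highest level of 10.7, 12.5 and 17.2 CPM in Ctrl and of 9.35, 11.6 and 13.3 CPM in hMut (log2 fold change -0.18, SE 0.09, 95% interval -0.36 to 0.01, edgeR adjusted p = 0.204). *Mthfd1* had levels of 25.1, 28.3 and 31.6 CPM in Ctrl and 23.1, 28.8 and 33.3 CPM in hMut (log2 fold change 0.03, SE 0.06, 95% interval -0.10 to 0.17, edgeR adjusted p = 0.773). The ranges of the groups overlapped for both genes. *Smcr8*, on the opposite strand, shares 5.34% of the exon bases of *Shmt1*.

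**Figure D2:**
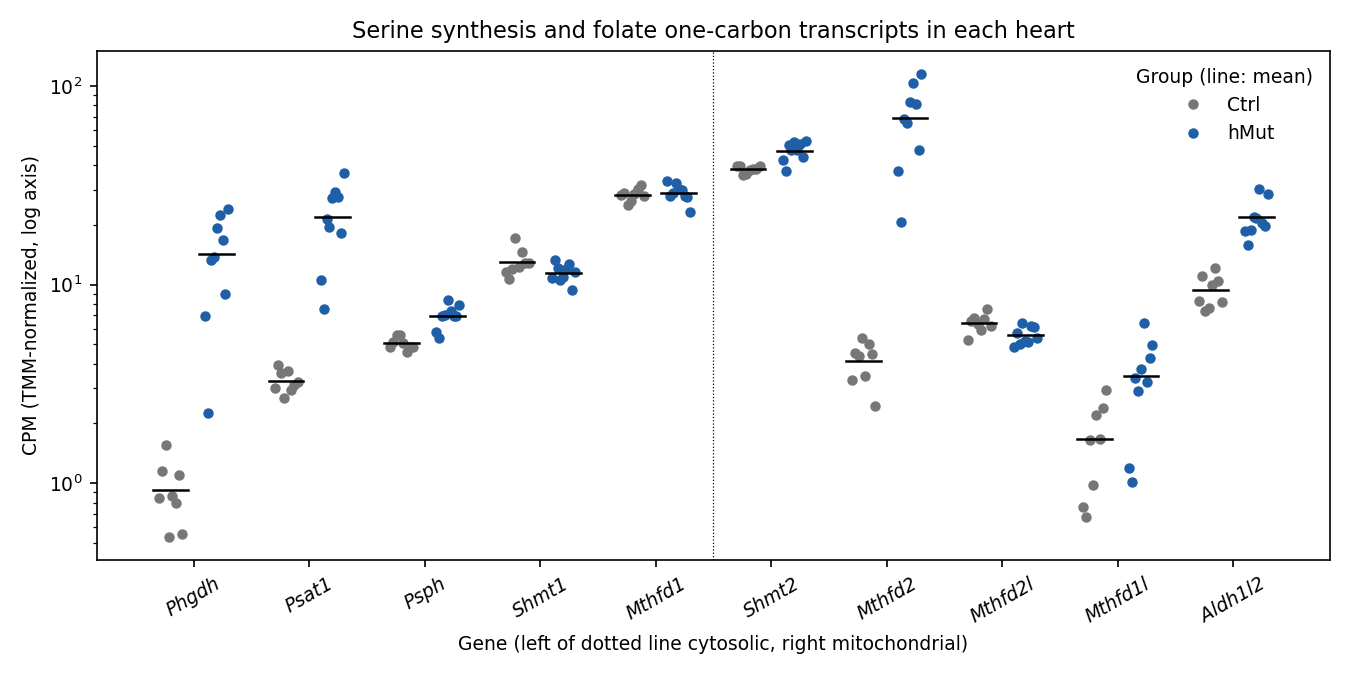
Level of each transcript in each heart (CPM, log axis), grey points for the 8 Ctrl and blue points for the 9 hMut hearts, with black lines at the group means and a dotted line between cytosolic and mitochondrial enzymes. The blue points of *Phgdh*, *Psat1*, *Mthfd2* and *Aldh1l2* all lie above the grey points, and hMut replicate 2 is the lowest blue point of *Mthfd2* (20.6 CPM), *Phgdh* (2.26 CPM) and *Psat1* (7.54 CPM).

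For the order of the members by level, the TMM-normalized CPM was divided by gene length in kilobases (RPKM). In Ctrl the order by mean level was *Shmt2* (12.2 RPKM), *Mthfd1* (6.38), *Shmt1* (3.34), *Aldh1l2* (1.25), *Mthfd2* (1.18), *Psph* (1.17), *Mthfd2l* (0.963), *Psat1* (0.771), *Mthfd1l* (0.375) and *Phgdh* (0.372). The first 4 were separated from each other without overlap of their ranges, while from *Aldh1l2* downwards each range overlapped that of the next, and *Mthfd2* exceeded *Psph* in 4 of 8 hearts. In hMut the order was *Mthfd2* (19.8 RPKM), *Shmt2* (15.2), *Mthfd1* (6.53), *Phgdh* (5.70), *Psat1* (5.16), *Shmt1* (2.95), *Aldh1l2* (2.90), *Psph* (1.61), *Mthfd2l* (0.838) and *Mthfd1l* (0.779). *Mthfd2* moved from rank 5 to rank 1 and was above *Shmt2* in 6 of 9 hearts, so the ranges of the leading pair overlapped. *Phgdh* moved from rank 10 to rank 4 and was above *Psat1* in 7 of 9 hearts. *Shmt2* was above *Mthfd1* in every heart of both groups without overlap.

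The summed level of the mitochondrial members was between 55.6 and 63.7 CPM in Ctrl and between 80.2 and 207 CPM (median 145) in hMut, and that of the cytosolic members between 47.7 and 53.5 CPM in Ctrl and between 56.3 and 103 CPM (median 83.1) in hMut. Neither sum overlapped between groups. These sums are of CPM without division by gene length, so longer transcripts weigh more in them. By CPM, the mitochondrial sum in hMut was largely *Mthfd2* and *Shmt2*. Of the cytosolic members, only the 3 serine synthesis enzymes were called higher.

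Whether enzymes of related steps changed unequally was tested within hearts, as the difference of log2 CPM (prior count 2) between the members of a pair, by a 2-sided exact permutation test over all 24310 assignments of the hearts to groups of 9 and 8. The p-values were adjusted over the 5 pairs. The ratios rest on the same counts as the fold changes above and are not separate support for them, and pairs that share a gene are not independent. In log2, the ratio of *Mthfd2* to *Mthfd1* ran from -3.50 to -2.27 in Ctrl and from -0.44 to 2.31 in hMut, a difference in means of 3.89 (adjusted p of the exact test 0.000103). That of *Mthfd2* to *Mthfd2l*, both mitochondrial, ran from -1.32 to -0.22 in Ctrl and from 1.84 to 4.39 in hMut, a difference of 4.12 (adjusted p of the exact test 0.000103). For both pairs all 9 hMut values exceeded those of Ctrl and the unadjusted p of 4.11e-05 is the smallest that these permutations can give.

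The log2 ratio of *Aldh1l2* to *Aldh1l1*, the cytosolic form of the same enzyme and not one of the 10, was 2.61 ± 0.79 (SD, n = 9) in hMut and 0.71 ± 0.57 (SD, n = 8) in Ctrl, a difference of 1.90 with no overlap (adjusted p of the exact test 0.000274). *Aldh1l1* alone had a log2 fold change of -0.63 (SE 0.25, edgeR adjusted p = 0.128). The log2 ratio of *Shmt2* to *Shmt1* was 2.04 ± 0.23 (SD, n = 9) against 1.56 ± 0.25 (SD, n = 8), a difference of 0.48, and 8 of 9 hMut values exceeded those of Ctrl (adjusted p of the exact test 0.00139). hMut replicate 2, at 1.48, lay within the Ctrl range. For *Mthfd1l* to *Mthfd1* the log2 ratio differed by 0.97 (adjusted p of the exact test 0.0358), with 6 of 9 hMut hearts above Ctrl. Leaving out 1 library at a time took this last adjusted p past the threshold without Ctrl replicates 1, 2 or 4 and without hMut replicates 3, 5, 6, 7, 8 or 9, at values between 0.0513 and 0.0714.

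**Figure D3:**
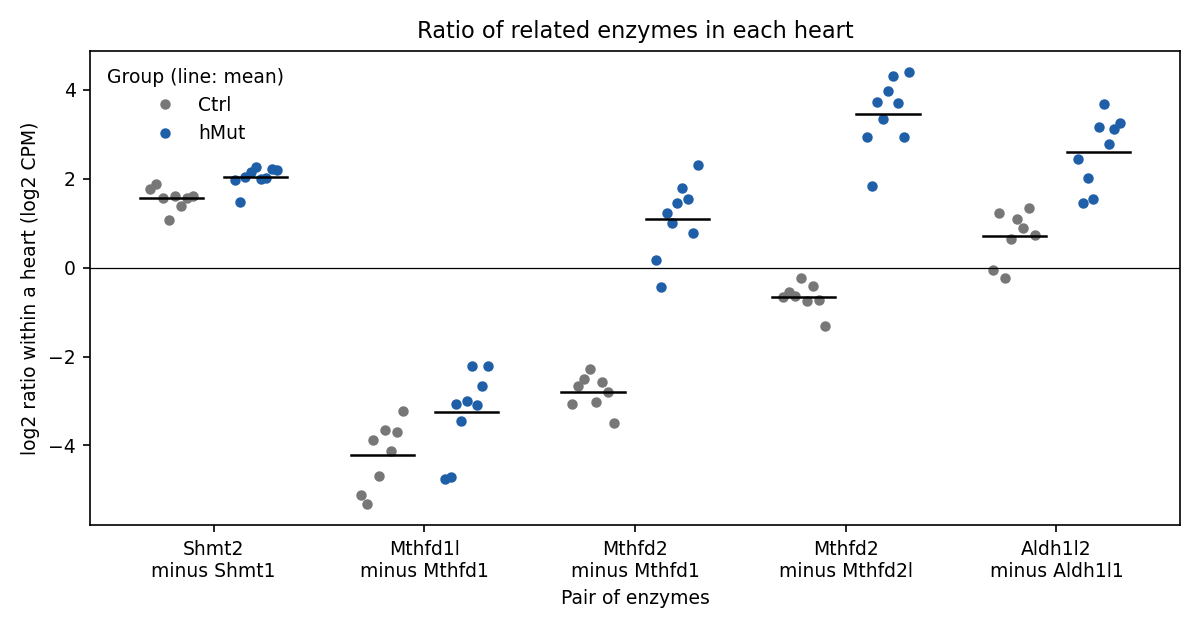
Log2 ratio of the CPM of paired enzymes in each heart (vertical axis, log2 units), grey points for Ctrl and blue points for hMut, with lines at the group means. The 9 hMut hearts lie above all Ctrl hearts for *Mthfd2* against *Mthfd1*, *Mthfd2* against *Mthfd2l* and *Aldh1l2* against *Aldh1l1*, and the groups overlap for *Shmt2* against *Shmt1* and *Mthfd1l* against *Mthfd1*.

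The hMut hearts differed widely among themselves. The highest hMut heart held 10.6 times the *Phgdh* level of the lowest, against 2.89 times in Ctrl, and the corresponding ratios were 5.58 and 2.22 for *Mthfd2* and 4.83 and 1.46 for *Psat1*. *Shmt2*, *Psph* and *Aldh1l2* varied less in hMut, with ratios of 1.43, 1.56 and 1.90, and *Mthfd1*, *Shmt1* and *Mthfd2l* had ratios of 1.44, 1.42 and 1.33. hMut replicate 2 was the lowest hMut heart for 7 of the 10 members and the highest for *Shmt1*. It had 4 members above every Ctrl heart, where each of the other 8 hMut hearts had 7. hMut replicate 9 was the highest for *Phgdh*, *Psat1*, *Shmt2* and *Mthfd2*, and hMut replicate 6 was the highest for *Aldh1l2* and *Mthfd1l*.

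Across the 9 hMut hearts, 4 relations of *Mthfd2* were computed on log2 CPM (prior count 2), with exact permutation of the pairings and adjustment over the 4. *Mthfd2* rose with *Phgdh* (Pearson r = 0.99, exact p = 5.51e-06, adjusted p = 1.10e-05, Spearman rho = 0.98, exact p = 4.96e-05, adjusted p = 9.92e-05). The relation with *Psat1* was of the same size (r = 0.98, exact p = 5.51e-06, adjusted p = 1.10e-05, rho = 0.98, exact p = 4.96e-05, adjusted p = 9.92e-05). These enzymes of different compartments ranked the 9 hearts in nearly the same order. Without hMut replicates 2 and 1, the hearts farthest from the median of the second gene, r was 0.99 for *Phgdh* (exact p = 0.000397, adjusted p = 0.00159, n = 7) and 0.95 for *Psat1* (exact p = 0.00139, adjusted p = 0.00278, n = 7).

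*Shmt2* also followed *Mthfd2* (r = 0.93, exact p = 0.000846, adjusted p = 0.00113, rho = 0.90, exact p = 0.00203, adjusted p = 0.00270), but without hMut replicates 2 and 1 r was 0.72 (exact p = 0.0657, adjusted p = 0.0876, n = 7) and rho was 0.79 (exact p = 0.0480, adjusted p = 0.0640), so the relation passed the adjusted threshold only with those hearts included. For the percentage of reads on mtDNA-encoded genes r was -0.66 (exact p = 0.0525, adjusted p = 0.0525) and rho was -0.52 (exact p = 0.162, adjusted p = 0.162), which did not pass, and r was -0.60 without hMut replicates 6 and 5 (exact p = 0.151, n = 7). Values of 1 heart come from the same library, so the members share its composition.

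**Figure D4:**
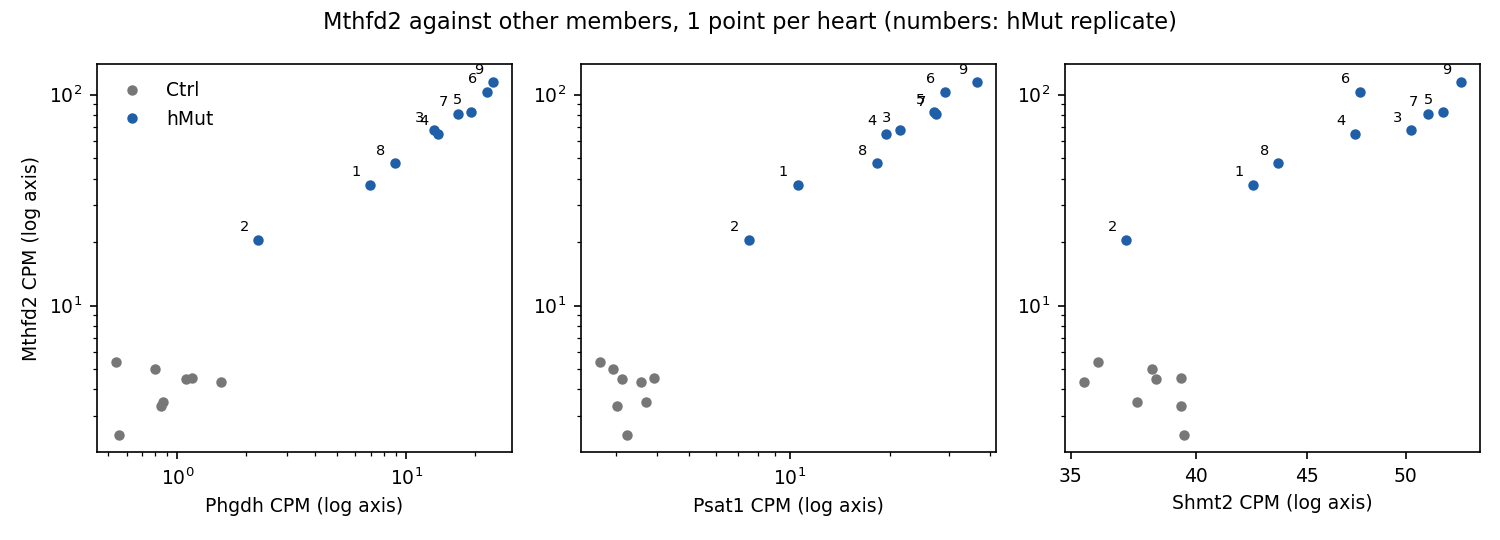
*Mthfd2* level (CPM, log axis) against *Phgdh*, *Psat1* and *Shmt2* (CPM, log axes), 1 point per heart, grey for Ctrl and blue for hMut, the numbers giving the hMut replicate. The 9 hMut hearts line up from replicate 2 (20.6 CPM of *Mthfd2*) to replicate 9 (115 CPM), and the Ctrl hearts form a group below them.

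hMut replicates 9 and 6, the hearts with the highest *Mthfd2* levels, were also those with the highest leukocyte marker sums and the lowest cardiomyocyte marker sums. With both left out, a choice made after these values were seen, 6 of 10 members were called higher, beside 316 of 16159 genes tested. The other hMut hearts had cardiomyocyte sums of 27360 to 34055 CPM, against 29050 to 35495 CPM in Ctrl, so this fit does not remove that shift. In it, *Mthfd2* had a log2 fold change of 3.81 (edgeR adjusted p = 1.33e-07) and *Phgdh* of 3.65 (adjusted p = 8.66e-06). *Psat1* had 2.52 (adjusted p = 3.74e-06) and *Aldh1l2* 1.06 (adjusted p = 8.66e-06). *Psph* had 0.42 (adjusted p = 0.0116), *Shmt2* 0.29 (adjusted p = 0.0164) and *Mthfd1l*, which was again not called, 0.75 (adjusted p = 0.237). The 6 members were also called with mtDNA-encoded genes left out of the fit, beside 687 of 16205 genes tested. They were called with sex as a covariate too, beside 562 of 16195 genes. By the counts, 3 of 8 Ctrl and 2 of 9 hMut hearts were read as female. Among the other marker lists, 1 of 4 endothelial genes was higher (*Kdr*, log2 fold change 0.39, SE 0.10, edgeR adjusted p = 0.0407). Also higher was 1 of 4 smooth muscle and pericyte genes (*Pdgfrb*, log2 fold change 0.24, SE 0.07, edgeR adjusted p = 0.0442). Of the rest, 0 of 5 fibroblast, 0 of 5 leukocyte, 0 of 5 dividing-cell genes and 0 of 1 tested atrial gene passed. The median log2 fold change was above 0 for fibroblast (0.13), endothelial (0.15), smooth muscle and pericyte (0.16), leukocyte (0.42) and dividing-cell (0.24) genes. Intervals as used for the cardiomyocyte markers lay above 0 for *Col1a1*, *Col1a2*, *Pdgfra*, *Dcn*, *Pecam1*, *Cdh5*, *Kdr*, *Acta2*, *Pdgfrb*, *Csf1r* and *Cd3e*. No gene of these lists had an interval below 0. The part of these shifts in the member results was not tested.

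Of 51 other genes of folate and serine metabolism and its regulation, in 7 lists, 44 passed the filter on low counts. Of these, 7 were higher and 0 were lower, beside 3.48% called higher and 1.14% called lower over all genes tested. The 7 include the 3 listed transcription factors given below, so fewer are genes of metabolism. None of the 7 tested genes of folate uptake and reduction, of the 5 other folate enzymes, of the 7 genes of the methionine cycle and transsulfuration and of the 6 genes of glycine cleavage and choline-derived units passed the test. Among the enzymes that use one-carbon units, *Atic*, of purine synthesis, was higher (log2 fold change 0.23, SE 0.05, edgeR adjusted p = 0.0185), and the other 5 did not pass. For serine transport and use, 3 of 10 tested genes were higher. The neutral amino acid transporter *Slc1a4* ran from 1.67 to 2.41 CPM in Ctrl and from 3.05 to 11.4 CPM in hMut, with no overlap (log2 fold change 1.68, SE 0.23, edgeR adjusted p = 0.000377). Such a separation was seen in 0.543% of all genes tested. *Srr*, the serine racemase, had a log2 fold change of 0.23 (SE 0.05, edgeR adjusted p = 0.00940) and *Sdsl*, related to serine dehydratase, of 0.29 (SE 0.07, edgeR adjusted p = 0.0341).

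The 3 transcription factors listed as known to act on these genes, *Atf4*, *Atf5* and *Myc*, were all higher, beside 3.48% of all genes tested. This short list was written with earlier results of these data known, and other regulators were not examined. *Atf5* ran from 39.5 to 52.6 CPM in Ctrl and from 70.0 to 174 CPM in hMut (log2 fold change 1.46, SE 0.14, edgeR adjusted p = 6.25e-06). *Atf4* ran from 46.5 to 59.4 CPM in Ctrl and from 66.7 to 179 CPM in hMut (log2 fold change 1.002, SE 0.16, edgeR adjusted p = 0.00147). *Myc* had 8 of 9 hMut hearts above every Ctrl heart (log2 fold change 1.52, SE 0.27, edgeR adjusted p = 0.00359). *Atf4* and *Atf5* did not overlap between groups, and every hMut heart was above every Ctrl heart in 0.543% of all genes tested.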

How the data were processed

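Poly(A) RNA of heart tissue from 17 mice was profiled; the part of the heart taken is not given in the sources used here. Per the submitters' processing notes, the authors used fastp, HISAT2 (version 2.2.1) and featureCounts (version 2.0.6) on GRCm39, and deposited unnormalized gene counts with a gene length in bases; the strand setting and annotation release are not given in the sources used here. Groups came from the labels. The main test was edgeR's quasi-likelihood F-test (edgeR 4.0.16 in R 4.3.3; TMM, filterByExpr, group as the only term, Benjamini-Hochberg over all genes tested, threshold 0.05), and DESeq2 (version 1.42.0) and limma-voom (limma 3.58.1) were alternatives. The edgeR fit and the exact permutation tests were tested on simulated data. CPM are TMM-normalized, and RPKM are CPM per kilobase of the deposited gene length. Ratios and relations were computed in Python 3.11.15 (scipy 1.17.1). Each mouse gave 1 library, so p-values set a difference or relation against the variation between mice.

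The 10 members and all lists were chosen with earlier results of these data known. Named genes are the members, *Aldh1l1*, *Polg*, *Atf4*, *Atf5*, *Myc*, at most 3 called genes per pathway list by adjusted p, and marker genes by list; *Cct6a*, *Ndufa4l2*, *Nopchap1*, *Smcr8* and *Fanci* are named as overlapping genes. The pathway lists hold genes from general knowledge. Of 51 pathway genes, 7 were not tested for low counts. Start sites and shared exon bases were taken from GENCODE M39. All 10 members matched there by identifier, but only 1 had the same coordinates as in the deposited counts. A start site can thus lie inside the span given for a gene. For *Mthfd2*, on the minus strand, it was at base 83294604, while the span ends at 83302890. Exon bases in M39 can also differ from the deposited gene length, as for *Psph* (7352 against 4329), less so for *Aldh1l2* (7504 against 7503). The shares of exon bases thus need not hold for the annotation that was counted. Other alternatives were RLE and upper-quartile normalization, other filters, no mtDNA-encoded genes, sex (read from the counts) or the replicate number as a further term, and each library left out. Over 136 pairs of libraries no library was a copy of another.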

Additional observations from a re-analysis of the deposited data

Results flagged for a closer look

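Of 30 groups of values checked, 1 held a heart far from the others. The log2 ratio of *Shmt2* to *Shmt1* in hMut replicate 2 was 1.48, and the next lowest hMut heart was at 1.98, a gap of 0.642 of the range of the 9 hMut hearts. About 5% of groups hold such a gap by chance, and the same heart was the lowest of the hMut hearts for 7 of the 10 members.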

How the results depend on the processing

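The number of members called was 6 or 7 of 10 in every alternative tried, with 3 or 4 mitochondrial and 3 cytosolic members, and 0 results reversed. Without hMut replicates 6 and 9, added after seeing the data, 431 genes and 5 other pathway genes were called. The count over all genes, 749, was 1502 with DESeq2, 2081 with limma-voom and quality weights, 463 without a filter on low counts and 195 with the replicate block. Leaving out 1 library gave 395 to 1792 genes, with 1182 without hMut replicate 1, 1792 without hMut replicate 2, 395, 497, 400 and 415 without hMut replicates 5, 6, 7 and 9, and 486, 486, 443, 432, 437 and 428 without Ctrl replicates 1, 2, 5, 6, 7 and 8. The 7 other pathway genes called became 12 with limma-voom, 3 with the replicate block, and 6 to 12 with 1 library left out (11 without hMut replicate 1 and 12 without hMut replicate 2).

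The replicate numbers name different mice, and the labels state no pairing between the groups. Correlations of deviations ran from -0.23 to 0.34 over 8 pairs, 1 over 0.1, and 1 of 8 Ctrl hearts was closest to its own number. hMut replicate 9 has no partner. Whether levels follow the order of the numbers was not tested. *Mthfd1l* was at 0.763 CPM in Ctrl replicate 1 and 2.95 CPM in Ctrl replicate 8. In hMut replicates 1 and 9 it was at 1.19 and 4.94 CPM. With the replicate number as a block, *Shmt2* had a log2 fold change of 0.29 (edgeR adjusted p = 0.0764) and *Mthfd1l* 0.94 (edgeR adjusted p = 0.0343). The other members kept their side of the threshold. The log2 ratio of *Mthfd1l* to *Mthfd1* was 0.815 to 1.16 with 1 library left out, and r of *Mthfd2* with *Shmt2* fell to 0.72 (adjusted p of the exact test 0.0876) without 2 hearts. The core TGATGNAA was in 0 members in the promoter window and in 5 in the wider one. Depth limited *Phgdh* and *Mthfd1l* in Ctrl, with a median of 31.5 and 55.5 counts. Causes of these changes were not tested.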
